A study of Bos taurus with 3 samples.

Results

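FCGRT, PIGR and JCHAIN are 3 genes that handle immunoglobulins, and they were taken from the count tables of the newborn cattle rumen as the rows that carry these symbols, 3 of 27270 genes. Each symbol named a single row, ENSBTAG00000013926 for FCGRT, ENSBTAG00000019798 for PIGR and ENSBTAG00000018531 for JCHAIN. Their transcripts were followed across the epithelial layers, endothelial cells, fibroblasts and immune subtypes of 3 newborn Holstein dairy calves. The study compared newborn with adult rumen, and the adult rumen was not analysed here.

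FCGRT encodes the heavy chain of the neonatal Fc receptor FcRn, which pairs with beta-2-microglobulin, binds immunoglobulin G (IgG) and albumin in acidified endosomes and returns them to the cell surface instead of letting them be degraded. PIGR encodes the polymeric immunoglobulin receptor, which carries dimeric IgA and pentameric IgM through epithelial cells into secretions, and JCHAIN encodes the joining chain that links antibody units into these polymers. Ruminant calves are born with little circulating antibody and take up maternal IgG from colostrum across the wall of the intestine.

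The calves were sampled 1 day after birth. The tissue came from the ventral sac of the rumen, the outer muscle was stripped off, and EDTA, trypsin and a mixture with collagenase and dispase released the cells. Each calf gave 1 droplet library of 3′ ends, so the animal is the replicate and no sample stands for a treated or control group. Whether the calves had taken colostrum is not given in the sources used here.

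Barcodes with 500 to 4000 detected genes numbered 4935, 10737 and 10543 in calves 1, 2 and 3. After limits on unique molecular identifiers (UMIs, each standing for 1 captured RNA molecule) and on mitochondrial UMIs and after removal of likely doublets, 4695, 9746 and 9601 cells were left, with medians of 10187, 6515.5 and 7416 UMIs. Among all 31228 barcodes 87 barcode sequences occurred in more than 1 library, and among the kept cells 53 sequences did, none of them in all 3. The cells fell into 21177 epithelial cells, 1294 endothelial cells, 768 fibroblasts (myofibroblasts included) and 803 immune cells. Immune cells were few in calf 1 (10) and calf 2 (79) against 714 in calf 3, and calf 1 gave only 22 fibroblasts, so values for these classes in calf 1 are coarse. The summed level of the epithelial marker list was 69.9 to 86.6 UMIs per 10000 in the epithelial class, 2.26 to 11.5 in the endothelial class, 5.78 to 46.5 in the fibroblast class and 4.81 to 10.0 in the immune class over the calves. No cluster carried the name of B or plasma cells, and of the 9 markers of that list 3 were at 0 in the kept immune cells. The 3 genes took no part in the clustering.

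FCGRT was found in every major class of the newborn rumen and PIGR in none. FCGRT was highest in dendritic-like, monocyte-like and endothelial cells, intermediate in fibroblasts and low in all epithelial layers, T-cell-like and plasmacytoid dendritic-like cells. In calf 3 the T-cell-like level (0.245, 20 UMIs) lay below the epithelial level (0.769). In calf 2 it lay above (0.635, 5 UMIs, against 0.527), and calf 1 gave only 3 T-cell-like cells, without an FCGRT UMI. The plasmacytoid dendritic-like level of calf 3 (0.342) had an exact Poisson interval of 0.0932 to 0.875, which included the epithelial level. JCHAIN was at the level of scattered single UMIs in nearly all cells, with a small set of barcodes of calf 3 that carried many. Over the kept cells FCGRT gave 5830, 5131 and 8074 UMIs in calves 1, 2 and 3, JCHAIN 49, 142 and 222, and PIGR 0 in each. By summed UMIs FCGRT ranked 1079 of 27270 genes and JCHAIN 10307.

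In epithelial cells FCGRT stood at 1.11, 0.527 and 0.769 UMIs per 10000 UMIs in calves 1, 2 and 3, a mean of 0.802 ± 0.293 (SD, n = 3 calves). In endothelial cells the levels were 4.10, 4.90 and 3.20, a mean of 4.07 ± 0.848. In fibroblasts they were 3.24, 2.32 and 1.91, a mean of 2.49 ± 0.683, and in immune cells 4.79, 4.28 and 4.00, a mean of 4.36 ± 0.397. All 9 values of the other classes lay above the 3 epithelial values, and the endothelial and immune means differed by less than the spread between calves. Within a calf, the endothelial level was 3.70, 9.29 and 4.16 times the epithelial level in calves 1, 2 and 3, and the immune level 4.31, 8.12 and 5.20 times.

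These differences were tested on counts summed per calf and class. The calf was a block, and edgeR's quasi-likelihood F test was used with p-values adjusted over 11020 genes after Benjamini and Hochberg and a threshold of 0.05. FCGRT was higher in endothelial than in epithelial cells by 2.02 on the log2 scale (SE 0.244, edgeR adjusted p = 1.22e-06), in a comparison in which 45.9% of the genes tested passed. It was higher in immune cells by 2.15 (SE 0.254, adjusted p = 1.21e-06), where 48.1% of genes passed. It was higher in fibroblasts by 1.15 (SE 0.253, adjusted p = 0.00119), where 37.3% passed, and this call was lost without calf 2 (log2 difference 0.96, adjusted p = 0.0986). So large a share of all genes differed between these classes that passing the test is not in itself particular to FCGRT. The epithelial marker list was at its highest in the 22 fibroblasts of calf 1, and its part in the fibroblast level was not tested. Without calf 1 the log2 difference of fibroblasts was 1.28.

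**Figure D1:**
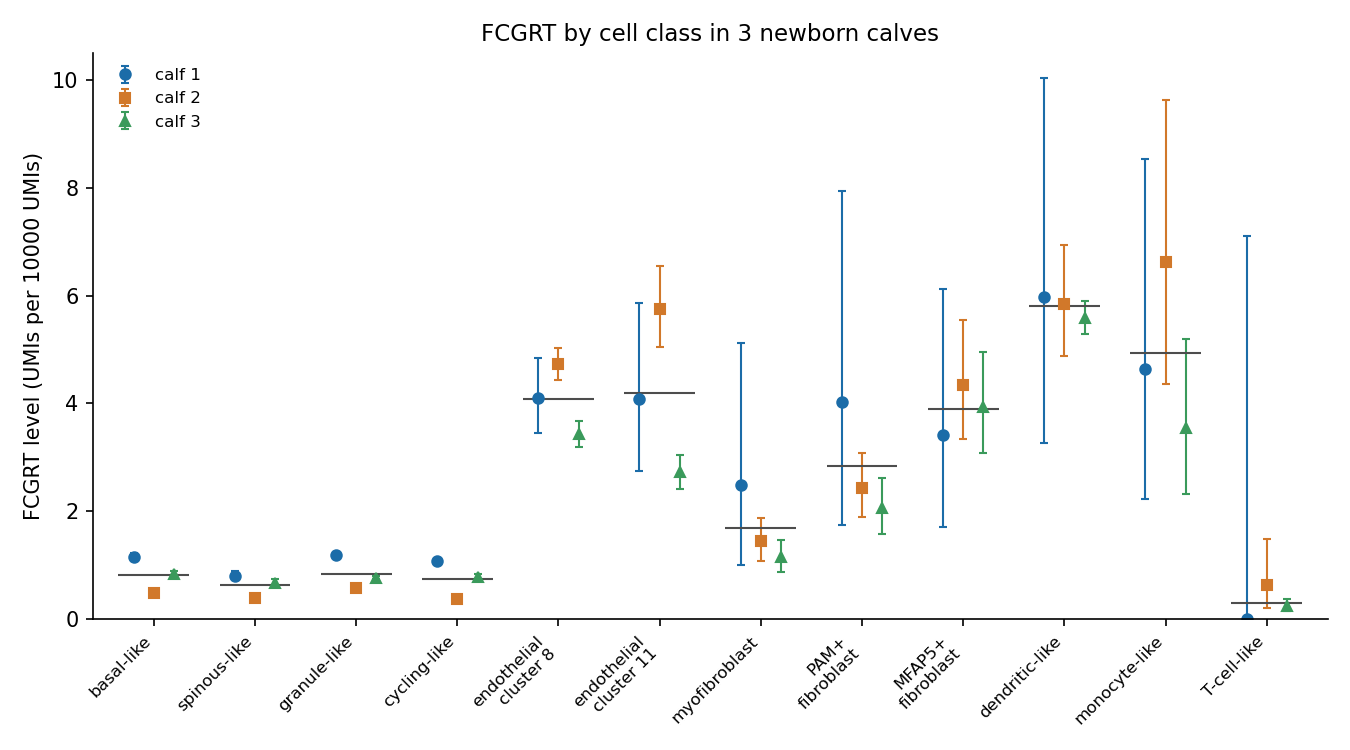
FCGRT level (UMIs per 10000 UMIs of the summed cells, linear axis) in 12 named classes and clusters, with 1 point per calf, exact Poisson 95% intervals that cover counting error only, and a line at the mean of the calves. The epithelial layers lie between 0.375 and 1.19, below endothelial, MFAP5+ fibroblast and dendritic-like cells, and T-cell-like cells lie between 0 and 0.635.

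The share of cells with an FCGRT UMI gave the same order of epithelial and endothelial cells once depth was made equal. Median depths were 7700 UMIs in epithelial, 4013 in endothelial, 2098.5 in fibroblast and 4913 in immune cells, so each cell of at least 2000 UMIs was thinned at random to 2000. After thinning, 19.7%, 10.0% and 14.1% of the epithelial cells of calves 1, 2 and 3 had an FCGRT UMI, a mean of 14.6% ± 4.84 (SD, n = 3 calves), against 47.5% without thinning. In endothelial cells the thinned shares were 66.7%, 60.7% and 47.8%, a mean of 58.4% ± 9.65 (77.7% without thinning). Fibroblasts averaged 34.2% ± 3.16 (40.5% without thinning) and immune cells 46.6% ± 7.40 (61.7% without thinning). T-cell-like cells had an FCGRT UMI in 10 of 221 thinned cells (median depth 2576 UMIs) and plasmacytoid dendritic-like cells in 0 of 26 (4347 UMIs). The epithelial shares lay above the shares in both classes in every calf that had such cells, but outside calf 3 these were few. Calves 1 and 2 gave 1 and 16 thinned T-cell-like cells, and calf 2 gave 1 plasmacytoid dendritic-like cell. Thinning kept 20663 of 21177 epithelial, 1167 of 1294 endothelial, 416 of 768 fibroblast and 711 of 803 immune cells, and left out the shallower ones.

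**Figure D2:**
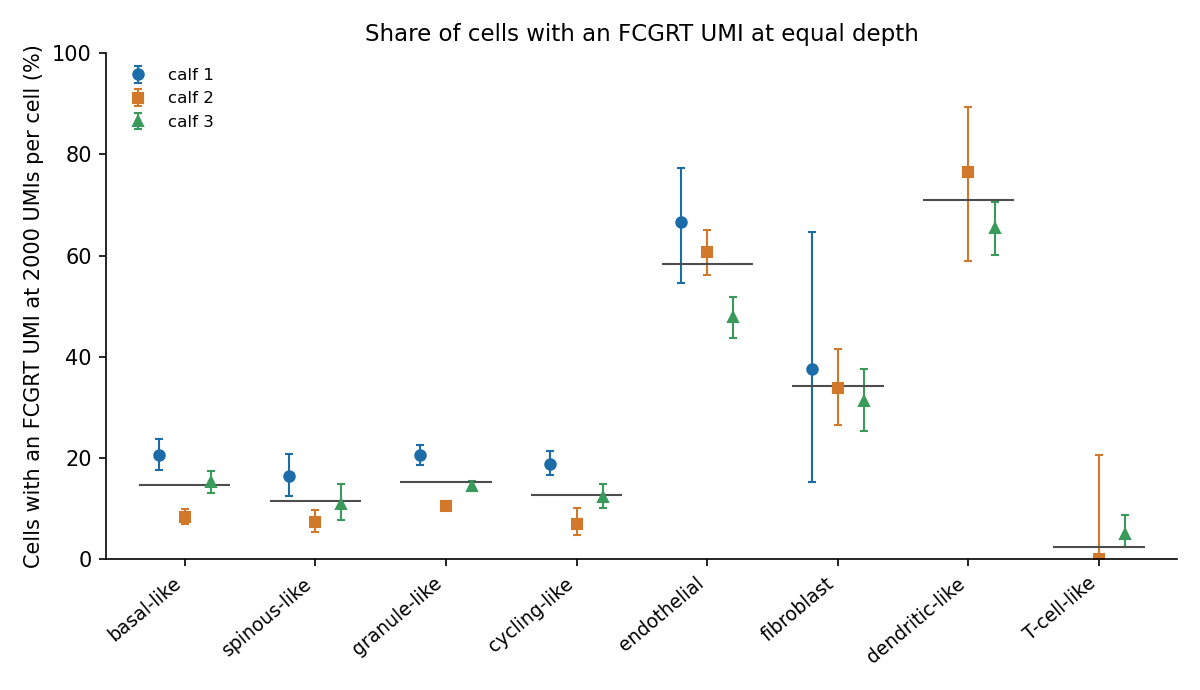
Share of cells with at least 1 FCGRT UMI (%) after every cell was thinned to 2000 UMIs, with 1 point per calf that had 10 or more such cells, exact Clopper-Pearson 95% intervals (counting error only) and a line at the mean of the points drawn. In each of the 4 epithelial layers calf 1 lies highest and calf 2 lowest, from 7.05% to 20.6%.

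Within the epithelium FCGRT was spread over all layers. Basal-like cells, named from KRT14, KRT5 and other basal markers, had levels of 1.14, 0.487 and 0.827 UMIs per 10000 in calves 1, 2 and 3. They formed a single cluster, led by IL1R2, IGFBP3 and LY6D, with none of the basal markers among its 10 leading genes. This cluster was the baseline of the tests between layers. Granule-like cells, named from the claudins CLDN1 and CLDN4 and from DLK2, had 1.19, 0.568 and 0.759, and their largest cluster was led by stress genes such as FOSB, ATF3 and EGR1. Cycling-like cells had 1.07, 0.375 and 0.787, and spinous-like cells, the keratinocytes between base and surface, had 0.802, 0.396 and 0.665. The spinous-like level was below the basal-like and granule-like levels in all 3 calves, while the ranges of the layers over the calves overlapped widely.

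Against basal-like cells, FCGRT differed by -0.27 on the log2 scale in spinous-like cells (SE 0.126, edgeR adjusted p = 0.116 over 11691 genes), where 34.6% of genes passed. In cycling-like cells the difference was -0.31 (SE 0.124, adjusted p = 0.0850), where 28.4% passed, and in granule-like cells 0.10 (SE 0.121, adjusted p = 0.672), where 9.41% passed. None of these passed the threshold, and unadjusted p was 0.0524, 0.0288 and 0.446. DESeq2 passed none of them either. With coarser clusters (resolution 0.4 in place of 0.8) the spinous-like and cycling-like differences passed, at -0.35 and -0.36 with adjusted p of 0.0450 and 0.0437, and with finer clusters (resolution 1.2) they passed at -0.33 and -0.32 with adjusted p of 0.0351 and 0.0420. The call on a lower FCGRT level in these layers thus turned on where the cluster borders were drawn, while the direction held in each of these fits.

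Calf 1 had the highest FCGRT level and calf 2 the lowest in 12 of 12 epithelial clusters. Within a calf the clusters ranged from 0.777 to 1.32 in calf 1, from 0.301 to 0.788 in calf 2 and from 0.538 to 0.990 in calf 3. The median depth of epithelial cells ran in the same order, with 10303, 6728 and 7898 UMIs, and its part in the level was not tested. At equal depth the thinned shares kept this order of calves. In endothelial cells calf 2 was highest and calf 3 lowest by level, while by thinned share calf 1 was highest and calf 3 lowest. With 1 library per calf, animal and library cannot be told apart.

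**Figure D3:**
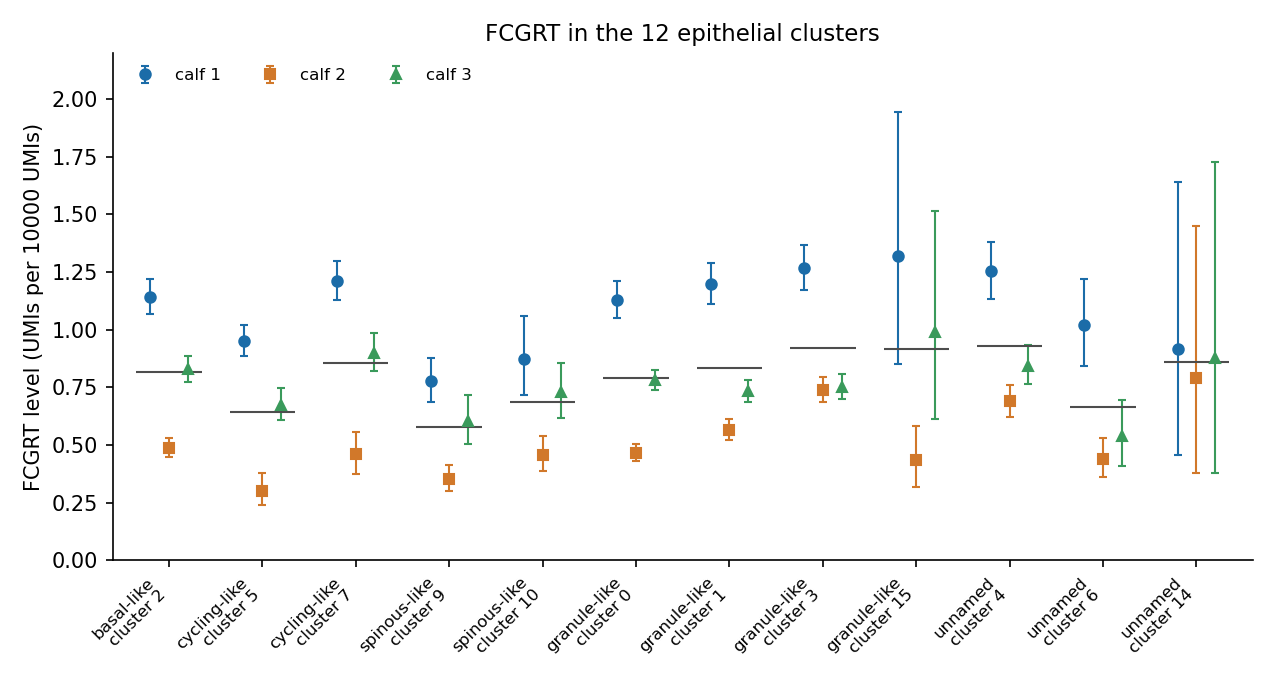
FCGRT level (UMIs per 10000 UMIs, linear axis) in the 12 epithelial clusters, ordered by the name of the layer, with 1 point per calf, exact Poisson 95% intervals (counting error only) and a line at the mean of the calves. Calf 1 is highest and calf 2 lowest in every cluster, while in the unnamed cluster of 156 cells the intervals of all calves overlap.

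The endothelial cells formed 2 clusters, one led by RNASE1, ACKR1 and SELP and one by BMX, HEY1, GJA4 and GJA5. The ACKR1 cluster also had the lymphatic marker LYVE1 among its leading genes. Of the 2 endothelial marker lists the lymphatic one scored higher there, and whether this cluster held lymphatic cells was not tested. FCGRT levels in the ACKR1 cluster (951 cells) were 4.10, 4.73 and 3.42 in calves 1, 2 and 3, and in the GJA5 cluster (343 cells) 4.09, 5.76 and 2.72. Neither cluster was higher than the other in all calves. FcRn of vascular endothelium is known for protecting IgG and albumin of the blood from degradation.

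Fibroblast subtypes stood further apart. Myofibroblasts, contractile cells named from ACTA2, TAGLN and RGS5 among others, had FCGRT levels of 2.48, 1.44 and 1.14 in calves 1, 2 and 3. PAM+ fibroblasts had 4.03, 2.43 and 2.05, and MFAP5+ fibroblasts, matrix cells marked by a microfibril protein, had 3.42, 4.34 and 3.93. In calves 2 and 3 the order was myofibroblast, PAM+ and MFAP5+, and the counting intervals of myofibroblasts (1.08 to 1.88 and 0.875 to 1.47) lay below those of MFAP5+ fibroblasts (3.34 to 5.54 and 3.07 to 4.96). The values of calf 1 come from 6, 9 and 7 cells with 7, 8 and 11 FCGRT UMIs and could not be ordered. The difference between fibroblast subtypes was not tested over calves.

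Among immune cells FCGRT followed the myeloid lineages. Dendritic-like cells, the antigen-presenting cells of the mucosa, had 5.98, 5.85 and 5.59 UMIs per 10000 in calves 1, 2 and 3, a mean of 5.80 ± 0.201 (SD, n = 3 calves), although calf 1 gave only 4 such cells. T-cell-like cells had 0, 0.635 and 0.245, from 3, 24 and 262 cells. FCGRT was higher in dendritic-like than in T-cell-like cells by 4.00 on the log2 scale (SE 0.396, edgeR adjusted p = 3.70e-22 over 4137 genes), where 30.5% of genes passed. This fit used calves 2 and 3 alone and had 1 residual degree of freedom, so its spread was largely borrowed from other genes. DESeq2 gave a difference of 3.72 with an adjusted p of 0.000163, and without the calf block edgeR gave 3.95 with an adjusted p of 0.000648.

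The largest dendritic-like cluster (321 cells) was led by CD1E, FCER1A, CSF1R and MRC1 and carried macrophage markers about as strongly as dendritic ones, so it may be read as dendritic or macrophage-like. Its FCGRT levels were 5.76, 6.04 and 6.02 in calves 1, 2 and 3. A cluster with BATF3 and CLEC9A, markers of type 1 dendritic cells, stood at 3.82 in the 44 cells of calf 3, below the interval of the largest cluster in that calf (5.68 to 6.38). Monocyte-like cells had 4.64, 6.62 and 3.55 from 3, 8 and 22 cells. Plasmacytoid dendritic-like cells stood at 0.342 in the 28 cells of calf 3 (4 UMIs, exact Poisson interval 0.0932 to 0.875). The unnamed clusters of the immune class were a cluster of 33 cells whose leading genes included FCRL5 and PECAM1, at 5.61 in calf 3, and a cluster of 27 cells led by keratins and other epithelial genes, at 1.52 and 1.04 in calves 2 and 3. The part of the latter in the level of the whole immune class was not tested.

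From highest to lowest the mean FCGRT levels over calves were 5.80 in dendritic-like, 4.93 in monocyte-like, 4.07 in endothelial, 3.90 in MFAP5+, 2.84 in PAM+ and 1.69 in myofibroblast cells, 0.839 in granule-like, 0.818 in basal-like, 0.743 in cycling-like and 0.621 in spinous-like cells, and 0.293 in T-cell-like cells. Plasmacytoid dendritic-like cells, left out of this order because calf 1 had none and calf 2 a single cell, stood at 0 and 0.342 in calves 2 and 3. From dendritic-like to MFAP5+ cells neighbours in this order stood closer than the larger of their SDs, and so did the 4 epithelial layers. The place of T-cell-like cells did not hold in calf 2, where their level (0.635) lay above those of all 4 epithelial layers.

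The 5 genes whose pattern was most like that of FCGRT, among 10700 genes and over 60 sums of a cluster and a calf, were PHACTR2 (Pearson r 0.822), RARA (0.813), DPYSL2 (0.807), RAMP2 (0.805) and FES (0.790), with r taken on log2(UMIs per 10000 + 0.1). RARA is a retinoic acid receptor, RAMP2 a partner of the adrenomedullin receptor and FES a tyrosine kinase of myeloid and endothelial cells. These sums share 3 libraries and differ in depth and size, so r is a description without a p.

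Beta-2-microglobulin, the light chain that FcRn needs to reach the surface, is encoded by B2M. Its level in epithelial cells was 1.65, 3.38 and 17.4 UMIs per 10000 in calves 1, 2 and 3, in endothelial cells 43.3, 110 and 178, and in immune cells 62.2, 68.9 and 119. B2M was lowest in calf 1 and highest in calf 3 in the epithelial, endothelial, fibroblast and immune classes, whereas FCGRT in epithelial cells was highest in calf 1. B2M was higher in endothelial than in epithelial cells by 3.98 on the log2 scale (SE 0.399, edgeR adjusted p = 1.06e-07) and in immune cells by 3.78 (SE 0.398, adjusted p = 2.93e-07). In fibroblasts B2M stood at 1.87, 8.13 and 24.6, and the difference of 0.32 did not pass (SE 0.361, adjusted p = 0.532).

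Of the list of 15 Fc receptors and the FcRn partner, 8 were tested between the major classes. Genes outside the 3 members could take part in the clustering, so their counts describe the classes. In immune cells 8 of 8 were higher than in epithelial cells, where 23.3% of all genes were higher. Most of the 8 were near 0 in epithelial cells and passed the filter on low counts through the immune class, so nothing is read from this count. FCER1A is a chain of the IgE receptor and a marker used to name dendritic cells. It stood at 5.18, 1.69 and 10.8 UMIs per 10000 in the immune cells of calves 1, 2 and 3. FCGR3A, FCGR1A and FCGR2B are receptors for IgG. In the same cells FCGR3A stood at 2.99, 1.06 and 0.635 and FCGR1A at 0.3988, 0.3997 and 0.3485. FCGR2B stood at 0.598, 0.329 and 0.0837. Calf 3 was thus highest for FCER1A and lowest for FCGR3A, FCGR1A and FCGR2B, and calf 1 gave only 10 immune cells. FCGR2A, also an IgG receptor, was lowest in calf 2 (0.199, 0.0235 and 0.0486 in calves 1, 2 and 3). In the epithelial cells of calf 3 FCER1A stood at 0.00655, and FCGR3A, FCGR1A and FCGR2B at 0.000728, 0.000291 and 0.000291. In endothelial cells 3 of 8 were higher (B2M, FCGR3A by 4.90 and FCER1G by 1.26), where 23.7% of all genes were, and FCGR3A was at 0 in the endothelial cells of calves 1 and 2. In fibroblasts none of 8 passed with edgeR, none had an unadjusted p under 0.05, and DESeq2 called 1 higher. Between dendritic-like and T-cell-like cells 4 of 7 were higher, where 17.8% of all genes were. FCGR1A gave 14 and 125 UMIs in the dendritic-like cells of calves 2 and 3 and none in their T-cell-like cells, and FCER2, the low-affinity IgE receptor, gave 38 and 96 against 0 and 1. FCER1A was higher by 6.30 and FCER1G, the signalling chain that several Fc receptors share, by 1.80, and DESeq2 called 2 of the 7. Between the epithelial layers 3 of the 15 could be tested and edgeR and DESeq2 called none; at an unadjusted p under 0.05, 1 was lower in cycling-like cells and none differed in the other layers.

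Genes of endosome recycling and polarised transport, the machinery that moves FcRn and the polymeric immunoglobulin receptor between membranes, separated the spinous-like cells from the basal-like cells. Of 15 tested, 10 were higher and 1 was lower in spinous-like cells, against 18.1% and 16.5% of all genes, and the median log2 difference was 0.54 against -0.01 over all genes. The 4 with the largest differences were RAB25 at 2.67 (SE 0.178, edgeR adjusted p = 1.70e-06), RAB11FIP5 at 2.51, EXOC6 at 1.62 and MYO5B at 1.56. RAB25 is an epithelial relative of RAB11, RAB11FIP5 binds it, EXOC6 is part of the exocyst and MYO5B is the motor of recycling endosomes. FCGRT was not higher there, at -0.27. In granule-like cells 1 of 15 was lower (YES1 at -0.45), where 3.57% of all genes were, and none was higher, with 2 higher at an unadjusted p under 0.05 and none by DESeq2. In cycling-like cells 1 of 15 was higher (EXOC6 by 1.47) and 1 lower (RAB4A by -0.54). Both counts lay below the shares of all genes there, 15.3% and 13.0%. Between major classes RAB25 and AP1M2, which serve epithelial polarity, were lower by -4.21 and -3.92 in endothelial cells, by -4.11 and -3.16 in fibroblasts and by -2.97 and -3.67 in immune cells. Of the 13 tested there, 6 were higher and 2 lower in endothelial cells (RAB11FIP5 by 3.41, EXOC6 by 2.03), against 23.7% and 22.2% of all genes. In fibroblasts none was higher and 2 were lower (1 and 4 at an unadjusted p under 0.05, and none and 3 by DESeq2), against 19.2% and 18.0% of all genes. In immune cells 3 were higher and 4 lower, against 23.3% and 24.8% of all genes, so that of these counts those lower in fibroblasts and endothelial cells and those higher in immune cells were at or below the share of all genes. Between dendritic-like and T-cell-like cells none of 5 passed with edgeR or DESeq2, and 3 were higher at an unadjusted p under 0.05.

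**Figure D4:**
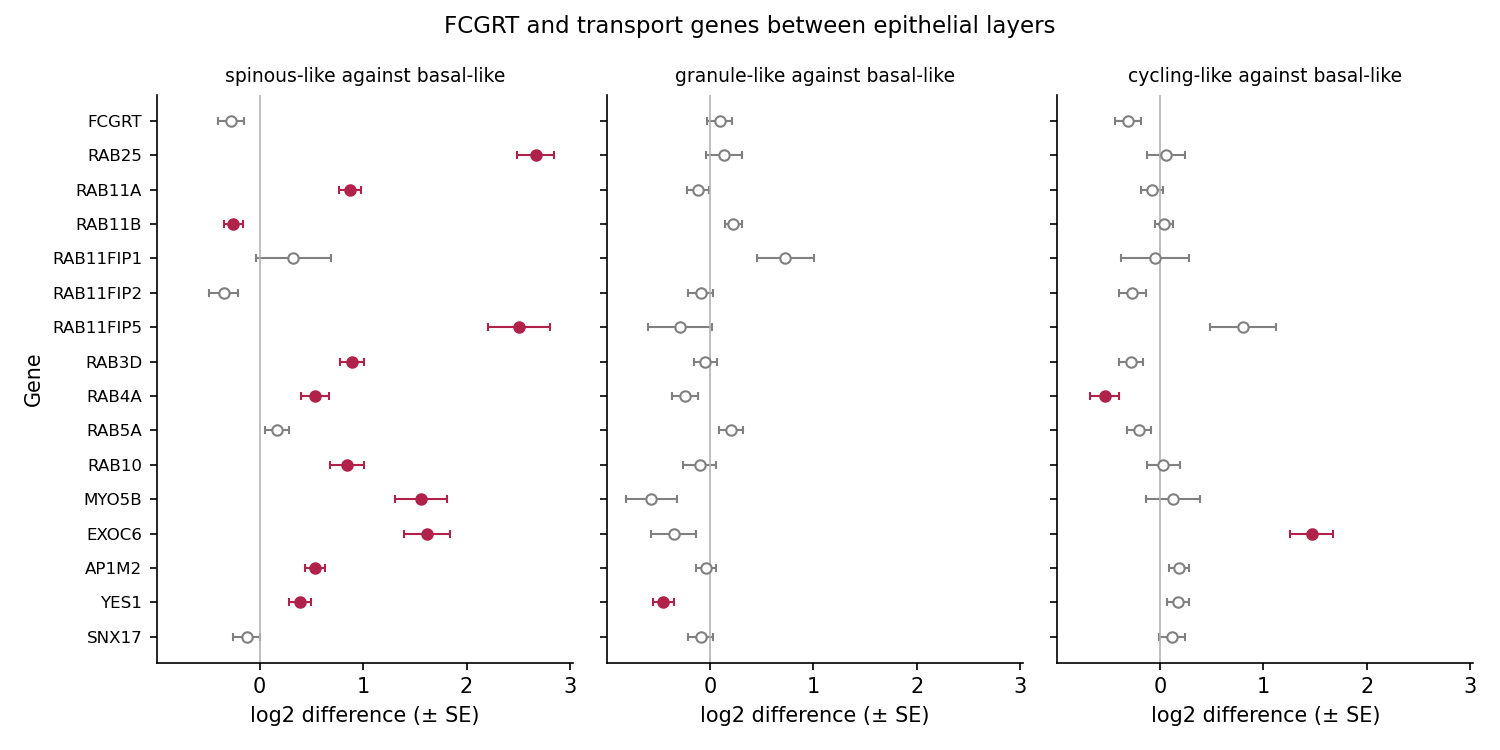
Log2 difference (± SE, linear axis) of FCGRT and 15 tested transport genes between each epithelial class and basal-like cells, from edgeR fits of counts summed per calf with the calf as a block. Filled red points passed an adjusted p of 0.05 and open grey points did not; 11 transport genes passed in spinous-like cells, 1 in granule-like and 2 in cycling-like cells, and FCGRT passed in none.

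PIGR was not detected in any class. In all 31228 barcodes 1 PIGR UMI was counted, in a barcode of calf 2 outside the limits of 500 to 4000 genes, and among the 24042 kept cells there was none. A count of 0 among 24042 cells allows a share of up to 0.0125% of cells with a UMI, and in UMIs a level of up to 0.000150 per 10000 (3 counts, over all kept cells). By calf these limits were 0.000587, 0.000420 and 0.000390 per 10000. Of the 27270 genes, 7191 had no UMI in any barcode and 1162 had a single one, so 30.6% were at or below the count of PIGR. Fold changes, shares of cells with both FCGRT and PIGR, and a search for genes of like pattern could not be computed from a count of 0.

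Genes known to induce PIGR in other epithelia were present. Of the list of 18 receptors and factors, all 18 were tested. In endothelial cells 11 were higher and 3 lower than in epithelial cells, against 23.7% and 22.2% of all genes. The largest differences were IFNGR1 at 3.83, the ligand-binding chain of the interferon gamma receptor, IL4R at -2.60, IL13RA1 at 2.08 and TLR3 at 1.78. In immune cells 12 were higher and none lower (1 lower at an unadjusted p under 0.05, none by DESeq2), against 23.3% and 24.8% of all genes, led by RELB at 2.69, TLR3 at 2.45, IFNGR1 at 2.44 and IFNGR2 at 2.10. In fibroblasts 5 were higher, where 19.2% of all genes were, led by TLR3 at 1.75, IL13RA1 at 1.14, IRF2 at 1.01 and USF2 at 0.90. Within the epithelium granule-like cells had 2 higher, where 5.84% of all genes were, IRF1 at 2.69 and IRF2 at 0.43. Spinous-like cells had 1 higher (TLR4 at 0.98) and 5 lower, among them TLR3 at -1.66 and IRF1 at -1.14, against 18.1% and 16.5% of all genes. Cycling-like cells had 7 lower, where 13.0% of all genes were, led by TLR3 at -1.19, STAT6 at -0.65, IL13RA1 at -0.58 and TNFRSF1A at -0.57. In dendritic-like against T-cell-like cells 5 of 14 were higher, led by IL13RA1 at 4.04, IFNGR1 at 2.25, TNFRSF1A at 2.21 and TLR3 at 1.89, where 17.8% of all genes were higher, while DESeq2 called none.

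JCHAIN was spread thinly. In epithelial cells it stood at 0.00969, 0.0198 and 0.0205 UMIs per 10000 in calves 1, 2 and 3, in endothelial cells at 0, 0.0206 and 0.0173, and in fibroblasts at 0, 0.0372 and 0.0292. Of the 357 kept cells with a JCHAIN UMI, 340 had 1, 11 had 2 to 4 and 6 had 5 or more. After thinning, 0.203%, 0.432% and 0.379% of epithelial cells had a JCHAIN UMI, against 1 of 416 fibroblasts and 3 of 1167 endothelial cells, with median depths of 7700, 2098.5 and 4013 UMIs (unthinned means 1.41%, 0.541% and 0.607%). The epithelial shares were of the same low order as those of fibroblasts and endothelial cells, which are not known to make joining chain, and no expression is read from them. Free RNA was not measured.

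Between the epithelial layers JCHAIN differed from basal-like cells by 0.39 (SE 0.392, edgeR adjusted p = 0.472) in spinous-like, by -0.33 (SE 0.330, adjusted p = 0.577) in granule-like and by -0.37 (SE 0.380, adjusted p = 0.514) in cycling-like cells. None passed, with edgeR or DESeq2 or at an unadjusted p under 0.05. JCHAIN was below the filter on low counts between the major classes. Without that filter it was higher in immune than in epithelial cells by 2.32 (SE 0.509, edgeR adjusted p = 3.55e-05), and this rests on calf 3, whose immune cells gave 72 JCHAIN UMIs while those of calves 1 and 2 gave 0. Against T-cell-like cells dendritic-like cells differed by -1.07 (SE 1.00, adjusted p = 0.486).

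Most of the JCHAIN signal of the kept immune cells lay in the plasmacytoid dendritic-like cluster, 29 cells of which 28 came from calf 3. In calf 3, 14 of the 28 cells had JCHAIN UMIs, 55 in all and up to 8 in a cell, a level of 4.70 per 10000 (exact Poisson interval 3.54 to 6.12) and 24.8% of the JCHAIN UMIs of the kept cells of that calf. The thinned share was 36.0% (exact Clopper-Pearson interval 18.0 to 57.5, 9 of 25 cells), against 0.379% of the epithelial cells of the same library. The cluster was named from SPIB and other plasmacytoid markers and was led by FCRLA. Its 5 cells with 5 or more JCHAIN UMIs had doublet scores of 0.58 to 0.61, and 4 of the 5 also carried 1 to 6 UMIs of CD79A, a B-lineage gene. Plasmacytoid dendritic cells are known to carry joining chain transcripts in other species. MZB1, a chaperone of plasma cells that plasmacytoid dendritic cells share, was found in 6 of the 28 cells. The only cell of calf 2 in this cluster had no JCHAIN UMI. Of the other dendritic-like and T-cell-like cells of calf 3, 9 and 4 had a JCHAIN UMI, at most 1 and 3 in a cell.

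The highest JCHAIN counts lay outside the kept cells. In calf 3, 6 barcodes with 156, 173, 190, 216, 306 and 429 JCHAIN UMIs met the limits on genes and UMIs, with 1324 to 3541 genes and 4652 to 21176 UMIs, and were removed by the doublet score at 0.84 to 0.92. They held 1470 of the 1775 JCHAIN UMIs of that library, at 193 to 403 JCHAIN UMIs per 10000. All 6 carried MZB1 (17 to 122 UMIs), FKBP11 (9 to 33 UMIs) and DERL3, genes of the secretory pathway of plasma cells, and 4 carried POU2AF1. CD79A was found in 3 and MS4A1 in 1. An unnamed gene, ENSBTAG00000001219, chosen after its values were seen, gave 252 to 1760 UMIs in each. FCGRT gave 1 UMI over the 6 barcodes. The epithelial marker list stood at 0 to 3.43 UMIs per 10000 in them, against a median of 65.6 in epithelial cells and 2.50 in immune cells.

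With doublets kept, 5 of the 6 barcodes fell into the T-cell-like class and 1 into an epithelial cluster. The mean JCHAIN level of the immune class over calves was then 0.958 in place of 0.0648, a difference that came from calf 3 alone. A further 2 barcodes of calf 3, with 298 and 349 genes, carried 19 and 26 JCHAIN UMIs. Calves 1 and 2 held no barcode with 5 or more JCHAIN UMIs, and their highest counts were 1 and 2 outside the kept cells and 2 within them. Calf 3 was also the calf with the most immune cells.

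**Figure D5:**
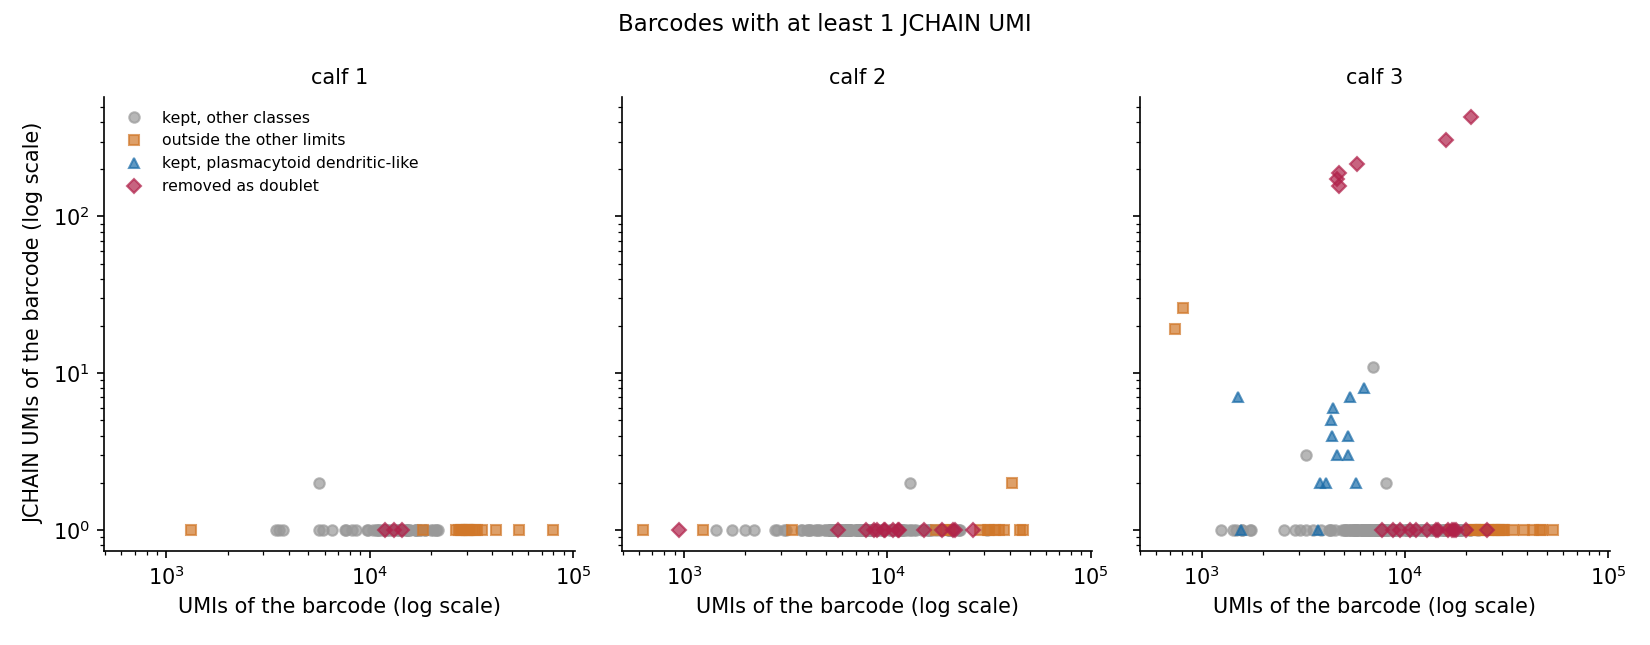
JCHAIN UMIs against all UMIs of a barcode (both axes on a log scale) for every barcode with at least 1 JCHAIN UMI, in 1 panel per calf, marked by whether the barcode was kept, removed as a doublet or outside the other limits. Calves 1 and 2 stay at 1 or 2 UMIs, while calf 3 has 6 barcodes removed as doublets at 156 to 429 and plasmacytoid dendritic-like cells at up to 8.

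A single kept cell outside the immune class had 5 or more JCHAIN UMIs, a granule-like cell of calf 3 with 11. It carried 24 KRT5 UMIs, a keratin of the basal epithelium, together with 2 MZB1 UMIs, and its doublet score was 0.25. The genes whose pattern was most like that of JCHAIN over the 60 sums included CCT6B (r 0.721), CCDC50 (0.714) and SLC15A4 (0.712), the last a lysosomal transporter known from plasmacytoid dendritic cells, and 2 genes without a symbol at 0.755 and 0.735. These values lean on the plasmacytoid dendritic-like sum of calf 3 and are given without a p.

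Of the list of 16 B and plasma cell genes, 15 are in the count tables and 6 could be tested between major classes. In immune cells 4 of 6 were higher than in epithelial cells, among them IRF4 by 6.69, XBP1 by 1.38 and PRDM1 by 1.30, where 23.3% of all genes were. IRF4 stood at 0.199, 0.165 and 0.378 UMIs per 10000 in the immune cells of calves 1, 2 and 3, and PAX5 was at 0 in all classes. IRF4 was far lower in epithelial cells and was tested only because it was high elsewhere. In calf 3 it gave 75 UMIs in dendritic-like and 50 in T-cell-like cells. Nothing about B or plasma cells is therefore read from the count of 4 of 6. PRDM1, which drives both plasma cells and keratinocyte differentiation, was also higher by 0.96 in endothelial cells, by 1.44 in spinous-like and by 1.35 in granule-like cells. In each of these it was the only 1 of 6 that was higher, where 23.7%, 18.1% and 5.84% of all genes were. DERL3 and FKBP11, 2 of 6, were lower in endothelial cells (-2.87 and -0.53) and in fibroblasts (-3.39 and -1.27). There 22.2% and 18.0% of all genes were lower. In fibroblasts 1 of 6 was higher, where 19.2% of all genes were, and DESeq2 also called 1 higher. In spinous-like cells 2 of 6 were lower (MZB1 at -1.66 and FKBP11 at -0.40), where 16.5% of all genes were, and DESeq2 called 1 lower. In cycling-like cells 1 of 6 was lower (MZB1 by -1.13) and 1 higher (TNFRSF17 by 1.42), against 13.0% and 15.3% of all genes. DESeq2 called neither. Against T-cell-like cells 1 of 5 was lower in dendritic-like cells (CD79A at -2.40), where 12.7% of all genes were lower, and none was higher, with 1 at an unadjusted p under 0.05 and none by DESeq2.

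Of 13 homing and survival factors of antibody-secreting cells, 6 were tested between major classes. In endothelial cells 4 were higher, VCAM1 by 6.07, CXCL12 by 5.58, IL6 by 3.78 and TGFB1 by 1.37, where 23.7% of all genes were. In fibroblasts 2 were higher, VCAM1 by 8.54 and CXCL12 by 8.08, where 19.2% of all genes were. CXCL12, a chemokine that holds plasma cells in their niche, stood at 7.73, 6.79 and 5.19 UMIs per 10000 in the fibroblasts of calves 1, 2 and 3 and at 0.0144, 0.0164 and 0.0198 in epithelial cells. In immune cells 4 of 6 were higher, TNFSF13B, the survival factor BAFF, by 8.24, IL10 by 5.57, TGFB1 by 2.61 and VCAM1 by 2.33, where 23.3% of all genes were. Several of these genes were near 0 in epithelial cells and were tested only because they were high elsewhere. CCL28 and CCL25, the chemokines that draw IgA-producing cells to mucosae, stayed at or below 0.00178 and 0.00918 in epithelial cells, and CXCL13 was at 0 in all classes. In granule-like cells 2 of 5 tested were higher, IL6 by 4.09 and IL10 by 2.47, where 5.84% of all genes were higher. In cycling-like cells 1 of 5 was higher (IL6 by 2.41) and 1 lower (CXCL12 by -1.37), against 15.3% and 13.0% of all genes. In spinous-like cells none of 5 passed with edgeR or DESeq2, and 1 was lower at an unadjusted p under 0.05. TNFSF13B was higher in dendritic-like than in T-cell-like cells by 3.27 (14 and 79 against 0 and 3 UMIs in calves 2 and 3). It was 1 of 3 tested, where 17.8% of all genes were higher, and DESeq2 called none.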

How the data were processed

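The authors sequenced 1 Chromium 3′ v3 library per calf and deposited raw UMI counts, not normalized, for each gene in each barcode. Per the submitters' notes and the methods they were made with Cell Ranger 3.1.0 on ARS-UCD1.2. The annotation release is not given in the sources used here. A count belongs to the gene annotated at the 3′ end, so a transcript ending elsewhere is not counted. From these counts, barcodes with 500 to 4000 genes, at most 50000 UMIs and at most 40% UMIs of 13 named mitochondrial genes were kept, and 3.91%, 8.52% and 8.39% were removed by a score against simulated doublets, in place of DoubletFinder. Total UMIs were 82263092, 89803289 and 106145091 in calves 1, 2 and 3. Clustering used the resolutions of the study (0.1 for all, 0.2 for immune and 0.8 for other cells) on 2000 variable genes without the 3 members, with a rebuilt Harmony and leidenalg 0.10.2. Immune cells were taken from the joint clusters, not, as in the study, from clusters of each sample alone. Clusters of at least 20 cells were named by the mean z score of fixed marker lists. The naming rule was set with the data in view, and the layers may differ from those of the study.

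Levels are UMIs per 10000 of the summed cells of a calf, given as mean ± SD over 3 calves. Sums of at least 10 cells were fitted with edgeR 4.0.16 (TMM, filterByExpr, quasi-likelihood, calf as a block, adjusted over all genes tested), and the SE was taken from the log2 difference and its F statistic. The fits were tested on simulated data. DESeq2 1.42.0 was an alternative. Intervals (95%) and limits from a count of 0 cover counting error only. Same-numbered samples of different classes come from the same calf. Named were the 3 members, up to 4 genes with the largest difference among those passing in each of 5 lists, and for FCGRT and JCHAIN the 5 genes of most like pattern among those with 50 UMIs in each calf. Members and lists were chosen with earlier results of these data known. Some genes of these lists are counted but not reported here by name. No sequences are shown.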

Additional observations from a re-analysis of the deposited data

Results flagged for a closer look

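The 6 barcodes of calf 3 that the doublet score removed held 1470 JCHAIN UMIs, more than all kept cells together, while no barcode of calves 1 and 2 had more than 2. The 2 barcodes of calf 3 with fewer than 500 genes and 5 or more JCHAIN UMIs held 45 JCHAIN UMIs. Both sets lie outside the cells on which the levels and tests rest. Whether the 6 barcodes are single cells or hold RNA of more than 1 cell was not tested.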

How the results depend on the processing

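Of 446 values under other settings, 408 kept their direction and call, or stayed within the SD between calves. Many of these could not change. PIGR stayed at 0, and a mean level or share with 1 calf left out cannot move by a whole SD. The count is therefore not a measure of robustness. The FCGRT difference of fibroblasts lost its call without calf 2 (0.96 to 1.37 with 1 calf left out) and kept it in the other fits run. At resolution 0.4 FCGRT passed at -0.35 in spinous-like and -0.36 in cycling-like cells, and at resolution 1.2 at -0.33 and -0.32. The JCHAIN difference, never past the threshold in the layers, reversed without calf 2, with a range of -0.64 to 0.17 over the calves left out in granule-like and -0.73 to 0.10 in cycling-like cells, and with doublets kept to 0.93 in cycling-like cells; dendritic-like against T-cell-like cells then passed at -8.74, which rests on 5 restored barcodes of calf 3. With doublets kept, JCHAIN levels moved to 0.0246 in epithelial, 0.0497 in cycling-like, 0.958 in immune and 4.80 in T-cell-like cells, its T-cell-like share to 1.40%, the FCGRT share of dendritic-like cells to 60.3%, cells with 5 or more JCHAIN UMIs to 12 and JCHAIN UMIs to 1915. Averaging over cells moved FCGRT to 3.73 in immune and 6.05 in dendritic-like cells and JCHAIN to 0.0305 in spinous-like cells. Without Harmony, FCGRT in dendritic-like cells was 5.58, and JCHAIN 0.0658 in basal-like and 0.0299 in spinous-like cells. Thinned to 1000 UMIs, FCGRT shares were 7.65% in epithelial, 29.1% in endothelial, 22.0% in fibroblast, 27.3% in immune and 48.0% in dendritic-like cells, and the JCHAIN share 0.209% in epithelial cells. Without thinning they were 47.5%, 77.7%, 40.5%, 61.7% and 91.1% for FCGRT, 7.97% for FCGRT in T-cell-like cells, and for JCHAIN 1.41% in epithelial, 0.607% in endothelial and 0.852% in dendritic-like cells. Shares scale with depth by construction; for the other changes the cause was not tested.

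Dropping the replicate block left every FCGRT and JCHAIN call as it was, with a log2 difference of 2.02 for FCGRT in endothelial cells, but cut the genes called in spinous-like cells from 4049 to 1036, in granule-like from 1100 to 21 and in cycling-like from 3315 to 406. Dendritic-like against T-cell-like cells could not be fitted without calf 2 or 3, and calf 1 had too few cells to enter it. Few immune cells and fibroblasts in calf 1 limit those classes, and JCHAIN outside immune cells was mostly single UMIs, too few to compare.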
